A study of Mus musculus with 6 samples.

Results

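Chemokines are small secreted proteins that direct the movement of leukocytes, and they act through G protein-coupled receptors on the responding cells. Their genes were chosen here by name, as every gene symbol made of Ccl, Cxcl, Xcl, Cx3cl, Ccr, Cxcr, Xcr or Cx3cr followed by a digit. The rule found 57 genes, 38 ligands and 19 receptors, among 21950 gene symbols that had a value in both genotypes. In the small intestine the epithelial ligand Ccl25 draws Ccr9-bearing lymphocytes, and Ccl28 draws Ccr10-bearing IgA plasma cells. Cxcl13, Ccl19, Ccl21 and Ccl20 with their receptors Cxcr5, Ccr7 and Ccr6 lay out Peyer's patches and smaller lymphoid follicles, and interferon induces Cxcl9 and Cxcl10, the ligands of Cxcr3.

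The ileum of 3 TLR4ΔIEC mice was set against that of 3 wild type mice. All were C57BL/6 mice of 24 weeks, and the TLR4ΔIEC mice carried a conditional deletion of Toll-like receptor 4, the sensor of bacterial lipopolysaccharide, in intestinal epithelial cells. The sources used here do not give the Cre driver, nor whether the wild type mice were littermates or carried the unrecombined allele. A barcoded whole-transcriptome library was made from each mouse, the 3 libraries of a genotype were sequenced together, and each genotype has 1 deposited column of average coverage, in reads per base of transcript. Every value below therefore stands for a pool of 3 mice, no spread between mice can be given, no test was possible, and the genotype and its sequencing pool cannot be told apart.

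The TLR4ΔIEC column held 22687 transcript entries with summed coverage of 698473, and the wild type column held 22724 entries with summed coverage of 699800. The targeted gene Tlr4 had a coverage of 1.60 in TLR4ΔIEC and 1.98 in wild type ileum, a weak check of the labels, since the value spans the whole transcript in whole tissue, where other cells keep the gene. Fabp6, the bile acid binding protein that marks ileum, had a coverage of 9750 in TLR4ΔIEC and 10471 in wild type, and the ileal bile acid transporter Slc10a2 had 67.0 and 63.4. Of the 8 ileum region markers 7 had a log2 ratio below 0 (median -0.37), the lowest being that of Amn, a subunit of the vitamin B12 receptor, with 12.9 in TLR4ΔIEC and 24.3 in wild type (-0.94). For log2 ratios of TLR4ΔIEC over wild type, both columns were brought to a common scale of units that sum to 1000000 on average, and 1 unit was added to each value. A gene was counted as higher or lower from 2-fold, and genes with a mean of 5 units or more, a coverage of about 3.58 in TLR4ΔIEC and 3.41 in wild type, were kept apart from weaker ones. All 5 adipose tissue genes of at least 5 units had a log2 ratio below 0 (median -1.45), as had all 8 immediate early genes (median -0.86), while all 6 globin genes were at least 2-fold higher. The globin genes are not 6 separate measurements. Hbb-b2 and Hbb-bt held the same values, and Hba-a1 and Hba-a2, like Hbb-b1 and Hbb-bs, held nearly the same. The part of these differences in the results below was not tested.

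On mm10, Ccl25 lies at chr8:4325210-4360020 (plus strand), Ccl28 at chr13:119623819-119654359 (plus), Ccl8 at chr11:82115185-82116799 (plus), Ccr10 at chr11:101172997-101175443 (minus), Cxcl13 at chr5:95956951-95961068 (plus), Cxcl10 at chr5:92346638-92348889 (minus), Xcl1 at chr1:164931644-164935527 (minus) and Ccr9 at chr9:123678439-123784330 (plus). Coverage is an average over bases of the transcript of each. A single length served both columns for each but Ccr9, whose recovered lengths were 4347 bases in TLR4ΔIEC and 4227 in wild type. The ratio of Ccr9 may therefore compare different parts of its transcript. Where a value is given below as read bases over a transcript length, both were recovered from the deposited average.

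Chemokine coverage was unevenly spread over the genes. Ccl25 led in both columns, with 209 reads per base in TLR4ΔIEC and 354 in wild type, followed by Ccl6 with 180.1 and 158. Together they held 62.1% of the summed units of the 57 genes in TLR4ΔIEC and 74.3% in wild type. Of the 57 genes, 17 reached a mean of 5 units, all of them ligands. Another 22 lay between 1 and 5 units, 9 ligands and 13 receptors, and 18 lay under 1 unit, 12 ligands and 6 receptors. No receptor had a coverage above 4.50 in TLR4ΔIEC or 3.73 in wild type. The order of levels differed most for Cxcl13, the 30th most covered of the 57 genes in TLR4ΔIEC and the 10th in wild type, and for Ccr10, the 24th in TLR4ΔIEC and the 41st in wild type. Ccl8 was the 4th in TLR4ΔIEC and the 15th in wild type.

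**Figure D1:**
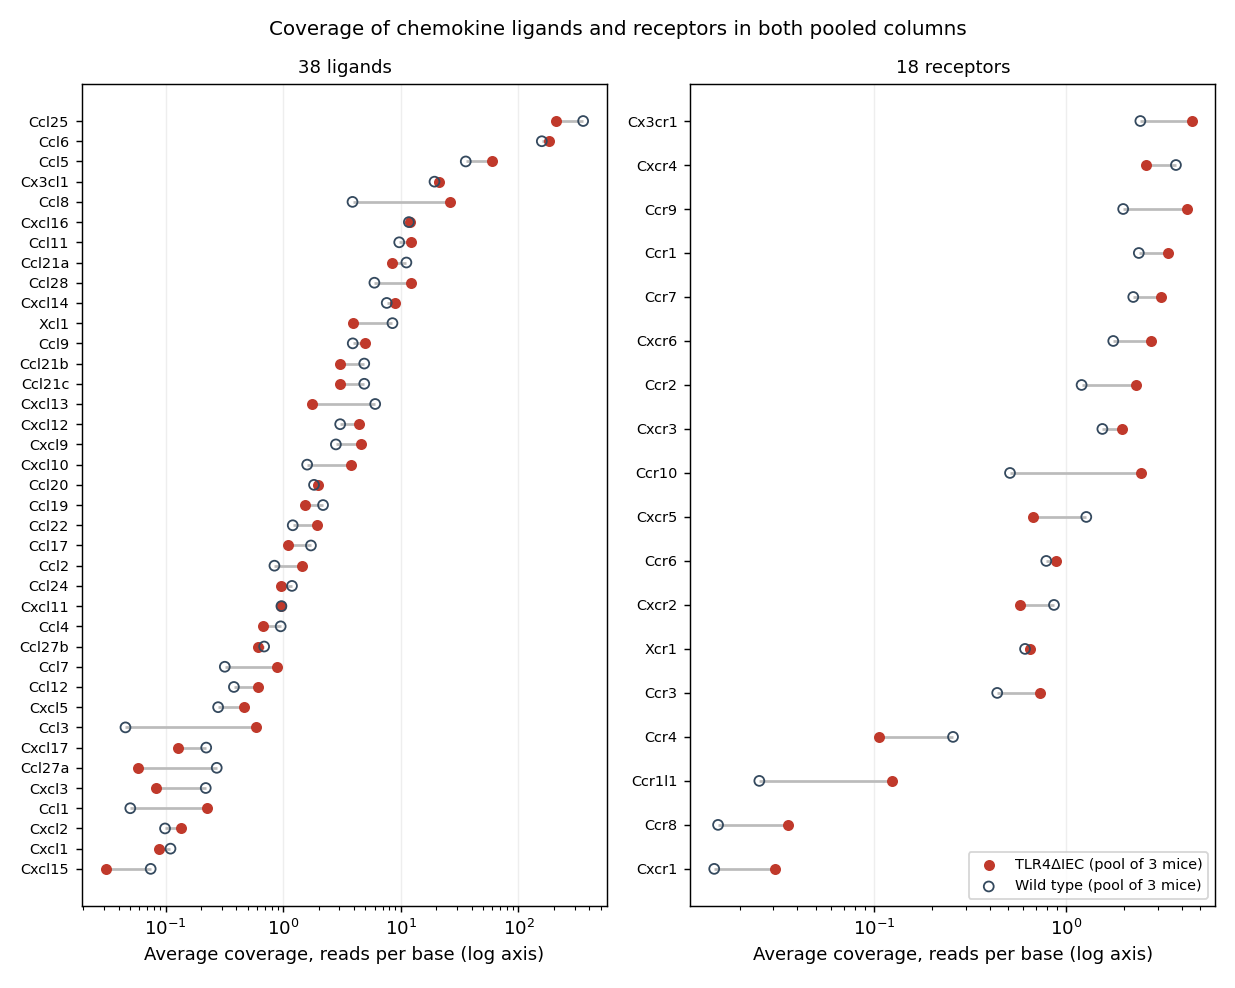
Average coverage (reads per base, log axis) of 38 ligands and 18 receptors, each row a gene, with a filled point for the TLR4ΔIEC pool and an open point for the wild type pool, so that each point is a single value without error. Ccl25 lies highest in both columns, and the widest gap among genes above 1 read per base in both columns is that of Ccl8 (26.2 in TLR4ΔIEC and 3.88 in wild type).

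Among the 17 ligands of at least 5 units, 1 was at least 2-fold higher in TLR4ΔIEC ileum and 2 were at least 2-fold lower. Over all 8891 genes of that level, 1.29% were higher and 2.79% lower by this measure, and counts this small say nothing of the ligands as a group. Of the 17, 10 had a log2 ratio above 0, where 52.6% of all genes did. Their median log2 ratio was 0.12 and that of all genes of this level 0.03. The 9 ligands between 1 and 5 units had 4 ratios above 0 and a median of -0.05. Over the 26 ligands of at least 1 unit the median was 0.04, against 0.03 for all genes of that level. Among the 22 weaker members, 1 was at least 2-fold higher, the receptor Ccr10, and 0 were at least 2-fold lower, against 2.01% and 2.91% of 4537 genes between 1 and 5 units. Over the 39 members of at least 1 unit, 2 were higher and 2 lower, against 1.53% and 2.83% of 13428 genes, and over the 5 members of at least 20 units 1 was higher and 0 lower, against 1.57% and 3.53% of 3684 genes. The filter is on the mean of both columns, so a gene that is high in a single column can pass through that column. Cxcl13 passed 5 units with 2.45 units in TLR4ΔIEC and 8.88 in wild type. The genes counted as higher did so too. Ccl8 passed 20 units with 36.7 in TLR4ΔIEC and 5.69 in wild type, and Ccr10 passed 1 unit with 3.43 and 0.749.

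**Figure D2:**
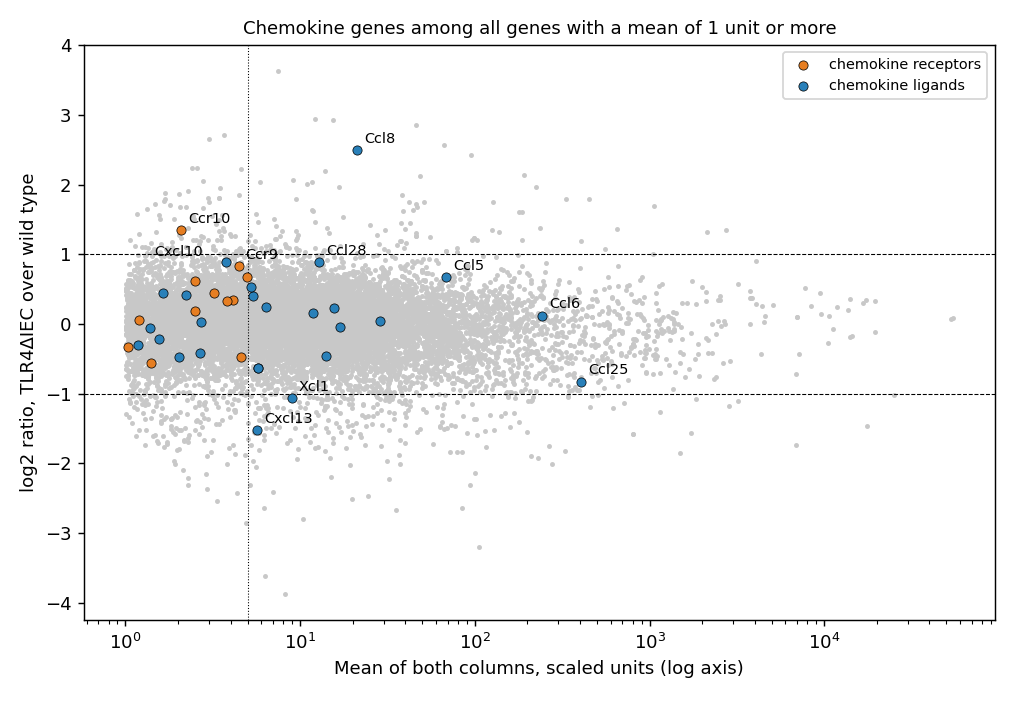
Log2 ratio of TLR4ΔIEC over wild type against the mean of both columns in scaled units (log axis) for every gene with a mean of 1 unit or more (grey), with chemokine ligands in blue and receptors in orange. Dashed lines mark 2-fold and the dotted line marks 5 units, and most of the coloured points lie within 2-fold, among the grey ones.

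The epithelial ligands pointed in opposite directions. Ccl25 had a coverage of 209 in TLR4ΔIEC and 354 in wild type, a log2 ratio of -0.83, or 1.77-fold lower. Ccl28, a ligand of mucosal epithelium with antimicrobial activity, had 12.2 in TLR4ΔIEC and 5.96 in wild type, a log2 ratio of 0.89, and rested on 45552 read bases in TLR4ΔIEC and 22291 in wild type, summed over 3739 bases of transcript in both. Neither reached 2-fold. Both genes were well covered in both columns, and in bulk tissue fewer cells of a type and less RNA per cell cannot be told apart. Of 11 epithelial genes with at least 5 units, 8 had a log2 ratio below 0 and 1 was at least 2-fold lower, the fatty acid binding protein Fabp2 (coverage 1252 in TLR4ΔIEC and 2689 in wild type, log2 ratio -1.17). The epithelial marker genes summed to 8099 units in TLR4ΔIEC and 10677 in wild type, and without Fabp2 the other 11 summed to 6349 and 6735 units. Their part in the value of Ccl25 was not tested. An upstream exon of Ccl25 overlaps Elavl1 on the opposite strand, and Elavl1 had a coverage of 7.42 in TLR4ΔIEC and 5.72 in wild type. The skin ligands Ccl27a and Ccl27b, which also bind Ccr10, stayed under 1 unit.

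The receptors of these epithelial ligands were both more covered in TLR4ΔIEC ileum. Ccr10, carried by IgA plasma cells, had a coverage of 2.46 in TLR4ΔIEC and 0.511 in wild type, a log2 ratio of 1.34. That was 4235 read bases in TLR4ΔIEC and 881 in wild type over 1725 bases of transcript, and the ratio without the added unit was 4.58-fold. Plasma cell genes were higher with it: all 5 plasma cell markers of at least 5 units had ratios above 0 and 4 were at least 2-fold higher. Among them the immunoglobulin joining chain Igj had a coverage of 503 in TLR4ΔIEC and 138 in wild type, and Tnfrsf17, a survival receptor of plasma cells, had 10.9 and 2.52. The list summed to 867 units in TLR4ΔIEC and 304 in wild type, of which Igj alone held 703 and 202. Ccr9 had a coverage of 4.27 in TLR4ΔIEC and 1.98 in wild type, a log2 ratio of 0.84 and 2.05-fold without the added unit, while its only ligand, Ccl25, was lower. An exon of Ccr9 overlaps that of Slc6a20a on the opposite strand, a transporter gene with a coverage of 28.1 in TLR4ΔIEC and 62.4 in wild type, and the sources used here do not say whether strand was used in counting. Its exons also overlap Gm17200 on the same strand, so the value of Ccr9 is uncertain either way.

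Ligands of organised lymphoid tissue were mostly lower in TLR4ΔIEC ileum, with 5 of 6 below 0 (46.7% of all genes of at least 1 unit were) and Ccl20 near 0. Since 3 of the 6 are Ccl21 copies, they are not 6 separate measurements. Cxcl13, made by follicular stromal cells to attract B cells, had the lowest ratio of the 39 members of at least 1 unit. Its coverage was 1.75 in TLR4ΔIEC and 6.06 in wild type, with 2033 and 7036 read bases behind it over 1162 bases of transcript, a log2 ratio of -1.52. With 5 units added in place of 1 the ratio was -0.90, within 2-fold. Its receptor Cxcr5, on B cells and follicular helper T cells, had a coverage of 0.672 in TLR4ΔIEC and 1.27 in wild type, a log2 ratio of -0.56, and its exons overlap those of Bcl9l on the opposite strand, which had 1.70 and 2.21.

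The ligands of Ccr7, which guide naive T cells and dendritic cells, were also lower. Ccl21a had a coverage of 8.34 in TLR4ΔIEC and 11.2 in wild type (log2 ratio -0.46), and Ccl19 had 1.55 and 2.18 (log2 ratio -0.41). The Ccl21 genes are near-identical copies in a duplicated region that is listed more than once, and Ccl21b and Ccl21c held the same values, 3.07 in TLR4ΔIEC and 4.89 in wild type. Over the 8 listed Ccl21 entries the log2 ratio ran between -0.77 and -0.31. Ccr7 itself had a coverage of 3.12 in TLR4ΔIEC and 2.24 in wild type, a log2 ratio of 0.32. Ccl20, the ligand that the epithelium over follicles makes, had 1.97 in TLR4ΔIEC and 1.83 in wild type, and its receptor Ccr6 had 0.883 and 0.789.

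Markers of B cells and follicles shared this direction. Of 11 with a mean of at least 1 unit, 9 had a log2 ratio below 0 and 3 were at least 2-fold lower, among them Ms4a1 (coverage 0.703 in TLR4ΔIEC and 2.84 in wild type) and Fcer2a (0.440 and 1.60), named after their values were seen. The better covered Cd79a and Cd79b, components of the B cell receptor, had log2 ratios of -0.06 and 0.05. The 12 markers summed to 75.2 units in TLR4ΔIEC and 92.2 in wild type, and the follicle marker Cr2 was under 1 unit. Markers of the epithelium over follicles, Ccl20 and Ccl9 included, did not share it. Of 7 with at least 1 unit, 5 were above 0 (median 0.18) and 2 below. Of these, 1 was at least 2-fold lower, Marcksl1 (log2 ratio -1.66). How much follicle tissue each ileum sample held is not given in the labels, and its part in these ratios was not tested.

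The inflammatory CC ligands, which attract monocytes, eosinophils and effector T cells, were above 0 in 10 of 12 members. Among the 8 with at least 1 unit, 6 were above 0, against 53.3% of all genes of that level. Ccl8, also called MCP-2, had the highest ratio of the 39 members of at least 1 unit. It had a coverage of 26.2 in TLR4ΔIEC and 3.88 in wild type, from 13411 and 1985 read bases over 511 bases of transcript, a log2 ratio of 2.49 and 6.44-fold without the added unit. In the mouse it binds Ccr8, which was hardly covered in either column (0.0357 in TLR4ΔIEC and 0.0155 in wild type). Ccl5, a product of cytotoxic T cells, had 60.1 in TLR4ΔIEC and 35.6 in wild type, a log2 ratio of 0.68. Ccl6, Ccl9 and Ccl11 (eotaxin) were well covered and had log2 ratios of 0.12, 0.24 and 0.24, close to equal in both columns. Ccl9 had a coverage of 4.98 in TLR4ΔIEC and 3.90 in wild type, and Ccl11 had 12.1 and 9.69.

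The monocyte attractant Ccl2 had a coverage of 1.45 in TLR4ΔIEC and 0.843 in wild type (log2 ratio 0.44), and its neighbours on chromosome 11, Ccl7 and Ccl12, had 0.889 and 0.614 in TLR4ΔIEC against 0.319 and 0.381 in wild type. Ccl3 had 361 read bases in TLR4ΔIEC and 28 in wild type over 613 bases of transcript, whereas Ccl4 had a coverage of 0.679 in TLR4ΔIEC and 0.952 in wild type. Ccl7, Ccl12 and Ccl3 are under 1 unit and were picked out after their values were seen. Ccl24, a second eotaxin, had 0.967 in TLR4ΔIEC and 1.19 in wild type. Ccl22 and Ccl17, dendritic cell products that share the receptor Ccr4, lay on either side of 0, Ccl22 with 1.92 in TLR4ΔIEC and 1.21 in wild type and Ccl17 with 1.11 and 1.72. Ccr4 was under 1 unit.

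The receptors of these inflammatory ligands had small positive ratios. Ccr2 had a coverage of 2.31 in TLR4ΔIEC and 1.20 in wild type (log2 ratio 0.61), and Ccr1 had 3.37 and 2.39 (0.34). The eosinophil receptor Ccr3, under 1 unit, had 0.734 in TLR4ΔIEC and 0.438 in wild type. Macrophage markers were also mostly above 0, in 9 of 11 genes with at least 1 unit. Among them were Lyz2 (coverage 994 in TLR4ΔIEC and 471 in wild type) and Csf1r (19.6 and 9.34). The 2 below 0 were C1qa (log2 ratio -0.08) and Mertk (-0.22). The list summed to 1704 units in TLR4ΔIEC and 927 in wild type, of which Lyz2 alone held 1390 and 691. The next most covered gene of the list, C1qb, had a coverage of 83.8 in TLR4ΔIEC and 48.4 in wild type. Whether macrophages alone gave the Lyz2 coverage of whole tissue was not tested. T cell markers were above 0 in 12 of 13 genes, with the granzyme Gzma at 140.3 in TLR4ΔIEC and 39.3 in wild type. They summed to 301 units in TLR4ΔIEC and 119.9 in wild type, of which Gzma alone held 196 and 57.6. The part of these cell types in the ratios of Ccl5, Ccl8, Ccr1 and Ccr2 was not tested.

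**Figure D3:**
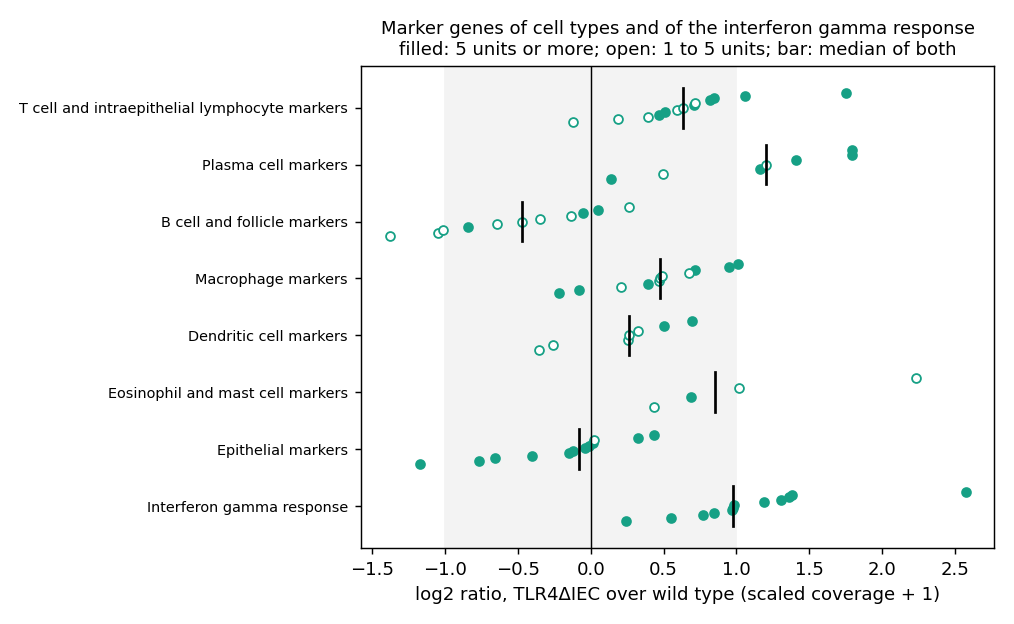
Log2 ratios of TLR4ΔIEC over wild type for single marker genes with a mean of at least 1 unit, a row for each list, filled points for 5 units or more, open points for 1 to 5 units and a bar at the median, with points spread vertically only so that they can be told apart. The B cell and follicle markers lie mostly left of 0, while the T cell, plasma cell, macrophage and interferon gamma lists lie mostly right of it.

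Of the interferon-induced CXC ligands of Cxcr3, Cxcl9 and Cxcl10 had ratios above 0 and Cxcl11 lay close to 0. Cxcl9 had a coverage of 4.57 in TLR4ΔIEC and 2.81 in wild type, a log2 ratio of 0.53. Cxcl10 had 3.74 in TLR4ΔIEC and 1.60 in wild type, from 4111 and 1759 read bases over 1100 bases of transcript, a log2 ratio of 0.90 and 2.23-fold without the added unit. Cxcl11, which RefSeq annotates as a transcribed pseudogene in this strain, had 0.951 and 0.966. Cxcr3, found on effector T cells, had 1.95 in TLR4ΔIEC and 1.54 in wild type, a log2 ratio of 0.19. All 12 interferon gamma response genes of at least 5 units had ratios above 0 and 5 were at least 2-fold higher, among them Ubd, an interferon-inducible ubiquitin-like protein, with 82.5 in TLR4ΔIEC and 12.7 in wild type. The cytokine gene Ifng itself was under 1 unit and was picked after its value was seen, with 0.514 in TLR4ΔIEC and 0.133 in wild type. NF-κB feedback genes, a different inducible set, were below 0 in 6 of 8 of at least 5 units and in 6 of 10 of at least 1 unit.

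The promoters of 4 of these ligands are shown because they carry the ends of the comparison: Ccl8 with the highest ratio among members of at least 1 unit, Cxcl13 with the lowest, Ccl25 with the highest level and Cxcl10 as the ligand named for its induction by interferon. Each runs from 250 bases before to 50 after the RefSeq start (GRCm38.p6), on the gene's own strand. Capitals mark matches, on either strand, to the interferon response element core (GAAA, any 2 bases, GAAA), the NF-κB consensus, the AP-1 site TGANTCA or the TATA box TATAAA. Ccl8 lies at chr11:82114935-82115234 on the plus strand, Cxcl13 at chr5:95956689-95956988 on the plus strand, Ccl25 at chr8:4349338-4349637 on the plus strand (the start of its coding RefSeq transcript, the downstream one of 2 listed), and Cxcl10 at chr5:92348840-92349139 on the minus strand.
Ccl8: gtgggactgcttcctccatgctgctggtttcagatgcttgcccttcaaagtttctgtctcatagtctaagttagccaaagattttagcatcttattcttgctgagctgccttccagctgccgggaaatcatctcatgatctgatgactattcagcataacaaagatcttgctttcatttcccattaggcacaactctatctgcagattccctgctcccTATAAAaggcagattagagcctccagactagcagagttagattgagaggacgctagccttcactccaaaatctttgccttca
Cxcl13: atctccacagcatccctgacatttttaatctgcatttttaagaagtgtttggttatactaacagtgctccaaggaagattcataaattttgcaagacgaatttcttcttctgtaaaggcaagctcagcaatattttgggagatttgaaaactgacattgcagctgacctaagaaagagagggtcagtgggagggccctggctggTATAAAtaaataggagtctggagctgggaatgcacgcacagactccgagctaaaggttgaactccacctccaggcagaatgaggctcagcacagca
Ccl25: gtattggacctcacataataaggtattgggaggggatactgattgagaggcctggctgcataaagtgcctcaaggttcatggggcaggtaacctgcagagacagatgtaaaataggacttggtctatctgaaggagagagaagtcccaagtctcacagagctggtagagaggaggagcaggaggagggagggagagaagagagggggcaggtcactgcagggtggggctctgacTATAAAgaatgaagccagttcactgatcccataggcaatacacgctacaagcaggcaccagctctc
Cxcl10: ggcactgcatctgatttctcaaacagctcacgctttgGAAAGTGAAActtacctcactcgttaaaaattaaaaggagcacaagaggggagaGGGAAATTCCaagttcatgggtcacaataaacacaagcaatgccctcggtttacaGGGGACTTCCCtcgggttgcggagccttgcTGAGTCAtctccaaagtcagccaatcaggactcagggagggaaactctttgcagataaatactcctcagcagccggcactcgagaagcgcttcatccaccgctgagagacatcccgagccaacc
Cxcl10 held the interferon response element core beginning 213 bases before the start, 3 NF-κB matches, the last 2 of them overlapping, and an AP-1 site beginning 74 bases before it. The other three held only a TATA box among these motifs, 32 bases before the start in Ccl8, 46 in Cxcl13 and 16 in Ccl25. Over 32851 RefSeq promoters of this length, 3.44% held the interferon response element core, 8.46% the NF-κB consensus, 7.81% the AP-1 site and 13.6% the TATA box. Of 49 promoters listed for 42 of the 57 genes, 3 held the interferon response element core (Ccl19, Cxcl10 and Cxcl14), 11 the NF-κB consensus, 10 the AP-1 site and 13 the TATA box. These are matches of letters in a short window and do not show that a factor binds there.

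The remaining ligands of moderate level differed little, apart from Xcl1. Xcl1 (lymphotactin), which natural killer cells and activated CD8+ T cells make to attract Xcr1-bearing dendritic cells, had a coverage of 3.88 in TLR4ΔIEC and 8.49 in wild type, with 975 and 2131 read bases over 251 bases of transcript, a log2 ratio of -1.06. This lay just past 2-fold and within it with 5 units added (-0.74) or when the columns were scaled to totals that leave out the 50 highest genes (-0.97). Its exons overlap the noncoding gene Gm20743 on the opposite strand. Xcr1, under 1 unit, had 0.651 in TLR4ΔIEC and 0.612 in wild type. The 2 membrane-bound ligands were nearly equal, Cx3cl1 (fractalkine) with 20.9 in TLR4ΔIEC and 19.3 in wild type, and Cxcl16 with 11.9 and 11.7. The sign of Cxcl16 (log2 ratio -0.04) turned positive with scaling to the column total. Their receptors had higher values in TLR4ΔIEC, Cx3cr1 of resident macrophages with 4.50 against 2.43 in wild type (log2 ratio 0.67), and Cxcr6 of tissue lymphocytes with 2.75 against 1.76 in wild type (0.44).

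The stromal ligands Cxcl12 and Cxcl14 had log2 ratios of 0.40 and 0.16. Cxcl14 had a coverage of 8.98 in TLR4ΔIEC and 7.59 in wild type. Cxcl12, which retains cells that carry Cxcr4, had a coverage of 4.44 in TLR4ΔIEC and 3.05 in wild type, and Cxcr4 had 2.61 and 3.73, a log2 ratio of -0.47. Ligands that attract neutrophils were barely covered in either genotype: Cxcl1, Cxcl2, Cxcl3 and Cxcl5 lay between 0.0828 and 0.461 in TLR4ΔIEC and between 0.0991 and 0.280 in wild type. Their receptor Cxcr2 had 0.576 in TLR4ΔIEC and 0.865 in wild type. Ccl1, Cxcl15, Cxcl17, Cxcr1 and Ccr1l1 were also under 1 unit.

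Among the 13 receptors between 1 and 5 units, 10 had a log2 ratio above 0, or 76.9%, where 54.6% of all genes of that level did. The median over the receptors was 0.34 and that over all 4537 genes was 0.04. These receptors sit on overlapping sets of leukocytes, so they are not independent of each other. The 3 below 0 were Cxcr5, Cxcr4 and Cxcr2. Of the 13 receptors, 6 lay on the same side of 0 as every ligand of theirs with at least 1 unit: Ccr10 with Ccl28, Cxcr5 with Cxcl13, Ccr1 with Ccl6 and Ccl9, Ccr2 with Ccl2, Cx3cr1 with Cx3cl1, and Ccr6 with Ccl20. Another 4 lay on the opposite side: Ccr9 with Ccl25, Ccr7 with Ccl19 and Ccl21, Cxcr4 with Cxcl12, and Cxcr6 with Cxcl16, whose sign turned with the scaling. The ligands of 2 receptors lay on both sides, and Cxcr2 had no assigned ligand of that level. Several sides rest on ratios close to 0, those of Cx3cl1 (0.04), Ccr6 (0.05) and Ccl20 (0.03). Cxcr3 had ligands on both sides only through Cxcl11 (-0.05), whose sign also turned with the scaling. The share of same-side pairs among other genes was not computed, so these counts say nothing of the pairs as a group. The other Ccr10 ligands, Ccl27a and Ccl27b, were under 1 unit and below 0 in the entries used. Another entry of Ccl27b, on chromosome 4, had a log2 ratio of 0.43.

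**Figure D4:**
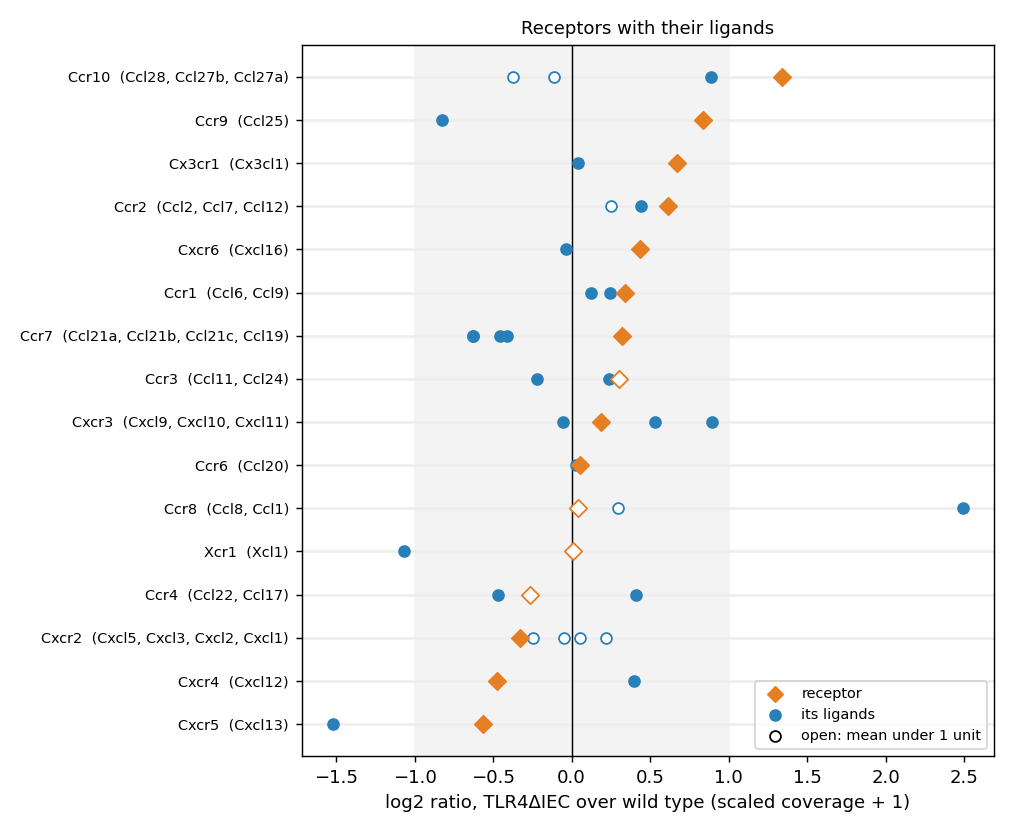
Log2 ratio of TLR4ΔIEC over wild type for 16 receptors (diamonds) in rows with their mouse ligands (circles), open symbols standing for genes with a mean under 1 unit. The Ccr9 row shows receptor and ligand on opposite sides of 0, and the Cxcr5 row shows both on the left.

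Other genes carry, scavenge or transmit chemokine signals. In the list of atypical and scavenging receptors, which also took in Cmklr1, no gene reached 5 units. Of its 4 genes between 1 and 5 units, 3 were above 0. The largest ratio was that of Cmklr1 (0.81), and Ccrl2 lay below 0 (-0.04). Ackr3, which scavenges Cxcl12, had a coverage of 1.81 in TLR4ΔIEC and 1.23 in wild type. Ackr4, which scavenges Ccl19, Ccl21 and Ccl25, had 2.95 and 2.04. Ackr3 and Ackr4 were named after their values were seen. Darc, a scavenging receptor under 1 unit named for the same reason, had 0.997 in TLR4ΔIEC and 0.0153 in wild type, a log2 ratio of 1.23. Of 15 signalling and trafficking genes of at least 5 units, 10 were above 0 and 0 differed by 2-fold. The largest of their ratios were those of Arrb2, an arrestin (0.67), and Rac2, a leukocyte GTPase (0.59). Lymphocyte homing and adhesion genes were above 0 in 6 of 6, with the gut-homing integrin subunits Itga4 at 0.65 and Itgb7 at 0.54, and 0 of these 6 reached 2-fold. Down to 1 unit, 9 of 11 homing genes were above 0 and 1 was at least 2-fold higher, the mucin-like selectin ligand Glycam1, with 1.66 in TLR4ΔIEC and 0.332 in wild type (log2 ratio 1.16, named after its value was seen). Chemokine cleavage and presentation genes were above 0 in 4 of 7, led by the sheddase Adam10 at 0.51. Ligands that the name rule leaves out, chemokines or chemokine-like proteins, were above 0 in 3 of 5, with the platelet factor Pf4 at -0.40.

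**Figure D5:**
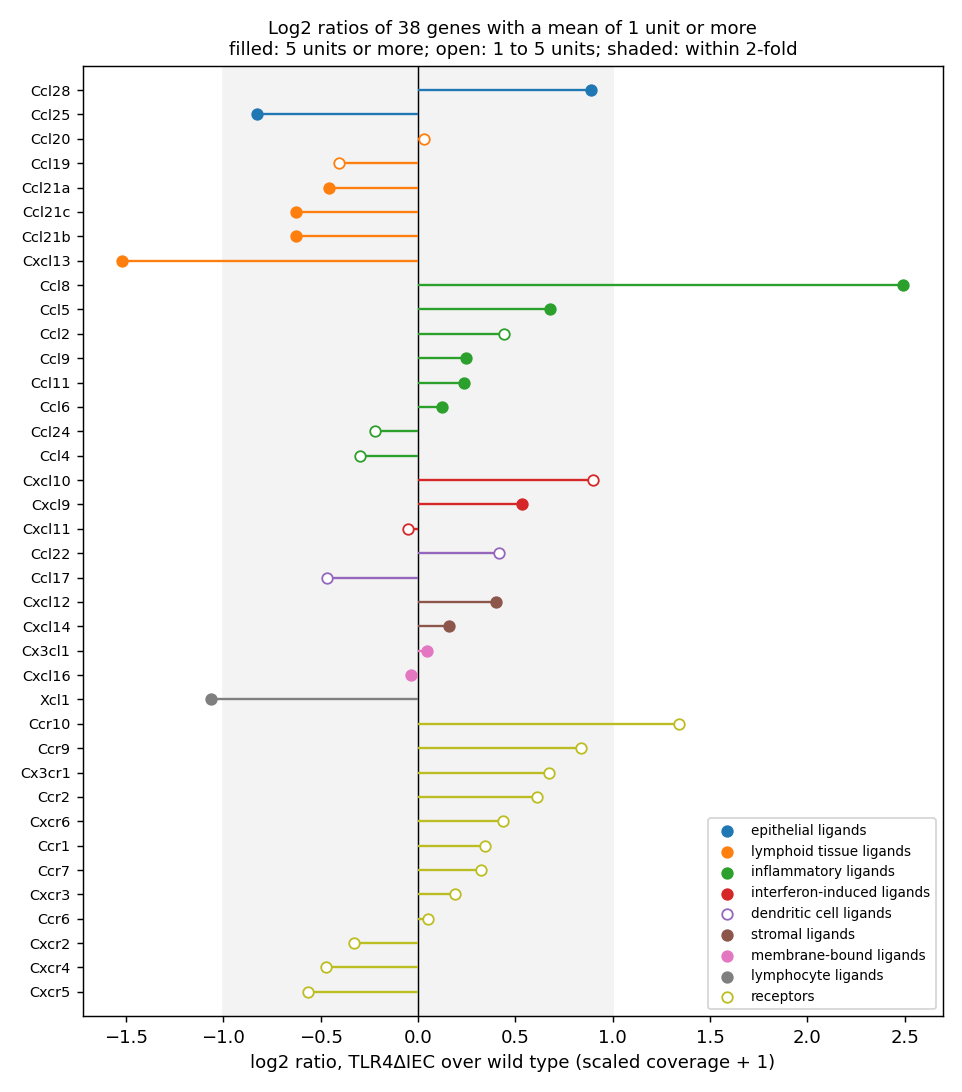
Log2 ratio of TLR4ΔIEC over wild type for 38 members with a mean of at least 1 unit, grouped by role, filled points for 5 units or more and open points for 1 to 5 units, the shaded band marking differences within 2-fold. Outside the band lie Ccl8 and Ccr10 on the right and Cxcl13 and Xcl1 on the left.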

How the data were processed

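Whole-transcriptome coverage of 57 chemokine ligand and receptor genes was compared between ileum pools from 3 TLR4ΔIEC and 3 wild type mice. The deposited values are coverage signal per RefSeq transcript entry, per the file headers, 1 column per genotype. The submitters' processing notes name TopHat2 2.0.10, Bowtie2 2.1.0 and mm10 without roles, and per the labels ribosomal RNA was depleted and reverse transcription was strand-specific. The sources used here give neither the averaging tool nor the read length, so no counting interval could be formed.

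Entries present in both columns (22001) were joined. For a repeated symbol the entry of highest mean was taken, and entries in 1 column only were left out rather than taken as 0. Columns were scaled by the median of ratios (factor 1.05), and the pseudocount of 1 unit understates ratios of weak genes. As 99.99% of values were a whole number over a whole length of bases (tolerance 1e-11), the bases of reads could be recovered where 1 length served both columns, as for 32 of the 57 genes. That length may be a divisor of the true one. For weak genes the average may run over only a part of the exons. Where no single length served both columns, the columns may average over different bases. This held for Ccr9, Ccr7, Ccr2, Cxcr3, Cxcr5, Ccl21b and Ccl21c among others. Of all genes of at least 5 units, 75.5% had a single length in both columns. Every member of at least 5 units was named with both values, and of those between 1 and 5 units the ones past 2-fold and the partners of named genes. The members, marker lists and tests were chosen with earlier results of these data known. No test across mice was possible, so no p-value is given. Steps were tested on simulated data. Protein identity between members, which had been planned, was not analysed here, and the values of a few genes that enter the counts are not reported here. Coordinates are from GENCODE vM21 and promoters from RefSeq GRCm38.p6. Python 3.11.15, numpy 2.4.6 and pandas 2.3.3 were used. There were 10 alternatives planned and 2 added after seeing the data, which leave out the pseudocount or count Ccl21b and Ccl21c once.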

Additional observations from a re-analysis of the deposited data

How the results depend on the processing

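No paired analysis was possible because each genotype has 1 pooled column and the labels' mouse numbers are not shared between genotypes, and for the same reason no mouse could be left out. The number of members at least 2-fold lower, 2 as reported, became 1 when the columns were scaled to totals that leave out the 50 highest genes, and 0 with a pseudocount of 5 units or when only genes of at least 20 units were kept. The number at least 2-fold higher, 1 as reported, became 2 when genes down to 1 unit, or all genes, were kept, through Ccr10. Leaving the 50 highest genes out of the totals moved the ligand median to 0.23, the median of all genes to 0.12, and the share of higher genes among those past 2-fold to 44.9%, against 31.7% as reported. With genes down to 1 unit kept, the ligand median was 0.04 and the median of all genes 0.03. The receptor median was 0.19 with a pseudocount of 5 units, at which Ccr10 was also within 2-fold (0.55). Keeping genes with 1 recovered length in both columns left 5 receptors above 0, with fewer receptors counted. Over all genes, those higher and lower numbered 65 and 146 with a pseudocount of 5 units, 206 and 380 when genes down to 1 unit were kept, 222 and 395 when all were, and 58 and 130 when only genes of at least 20 units were, against 115 and 248 as reported. With no pseudocount, an alternative added after seeing the data, Ccr9 (1.04) and Cxcl10 (1.16) passed 2-fold. Of 43 genes followed, 41 kept their sign under every scaling, pseudocount and choice of entry tried, and Cxcl16 and Cxcl11 did not. Coverage limits what can be said of the receptors, none of which reached 5 units.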
